A study of Mus musculus with 2 samples.

Results

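Tubulin isotypes are the alternative alpha- and beta-tubulin proteins from which microtubules are built, and 10 of their genes were followed here among the 55536 annotated genes of the series. The members were picked out by gene symbol, a rule that uses no measured value, although the family was proposed with earlier results of these data known. They comprised the alpha genes Tuba1a, Tuba1b and Tuba4a and the beta genes Tubb2a, Tubb2b, Tubb3, Tubb4a, Tubb4b, Tubb5 and Tubb6. An alpha and a beta protein fold with the help of chaperones, pair into a dimer, and stack head to tail into the hollow microtubules that carry cargo along axons and dendrites. The isotypes differ mostly in an acidic carboxy-terminal tail that projects from the microtubule surface and is the site of tyrosine removal, glutamylation and binding by motors and severing enzymes. Tubb3 is widely used as a marker of neurons, Tubb4a is prominent in myelinating oligodendrocytes as well as neurons, and Tuba1a and Tubb2b are best known from developing neurons.

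The measurements are total RNA-seq of hippocampal tissue from 2 female adults of strain B6CASTF1/J at an age of 8 to 10 months, 1 library for each animal. B6CASTF1/J mice are F1 hybrids with 1 genome copy from C57BL/6J and the other from CAST/EiJ. Replicate 2 came from animal 5 and replicate 1 from animal 1, both starting with 300 ng of RNA to which ERCC spike-ins, synthetic RNAs of known amount, had been added. The animals share sex, strain, age range and treatment, none being given, so they form 1 group and no condition was compared. The labels give both samples the same donor identifier, and reading them as 2 animals rests on their animal numbers. The tissue is labelled as a hippocampal layer without saying which one. Expected counts totalled 28417193 for replicate 2 and 34208349 for replicate 1. Genes known for the hippocampal subfields were present in both libraries. Prox1 of dentate granule cells had 33.6 TPM in replicate 2 and 35.1 TPM in replicate 1, and Rgs14 of CA2 had 43.4 TPM in replicate 2 and 45.2 TPM in replicate 1. Wfs1 of CA1 had 127 TPM in replicate 2 and 85.5 TPM in replicate 1, and Grik4 of CA3 had 26.0 TPM in replicate 2 and 28.6 TPM in replicate 1. TPM corrects counts for transcript length and library total and so allows levels to be compared between genes.

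The coding ends of 7 isotypes are shown first because the tails are where the isotypes differ most and where the modifying enzymes act. Each run below is the last 75 coding bases before the stop codon, 5′ to 3′ on the coding strand, taken from the GENCODE M21 transcripts on build GRCm38. Capitals mark the bases after the last run of 8 codons whose translation is the same in every member of the family, which is the variable tail, and the part before it is in lower case. The alpha run of Tuba4a lies at chr1:75215625-75215699 on the minus strand.
Tuba4a: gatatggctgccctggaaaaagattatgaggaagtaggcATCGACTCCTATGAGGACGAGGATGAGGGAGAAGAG
Its tail had 12 codons, of which 8 encode aspartate or glutamate, and it ended in GAG, a glutamate codon. The tails of Tuba1a and Tuba1b had 15 codons each, again 8 of them acidic, and both ended in a tyrosine codon. Thus 2 of the 3 alpha genes encode the final tyrosine, and the Tuba4a product lacks it as translated.

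The beta runs lie at chr13:34074471-34074545 for Tubb2a, chr13:34127474-34127548 for Tubb2b, chr17:57080693-57080767 for Tubb4a, chr2:25222311-25222385 for Tubb4b and chr17:35834985-35835059 for Tubb5, all on the minus strand, and at chr8:123421605-123421679 on the plus strand for Tubb3.
Tubb2a: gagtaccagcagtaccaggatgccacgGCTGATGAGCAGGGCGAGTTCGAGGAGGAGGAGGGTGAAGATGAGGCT
Tubb2b: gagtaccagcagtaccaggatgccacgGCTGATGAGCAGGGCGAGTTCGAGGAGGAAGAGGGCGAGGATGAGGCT
Tubb4a: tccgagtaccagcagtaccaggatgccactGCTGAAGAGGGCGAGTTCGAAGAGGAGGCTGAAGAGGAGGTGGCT
Tubb4b: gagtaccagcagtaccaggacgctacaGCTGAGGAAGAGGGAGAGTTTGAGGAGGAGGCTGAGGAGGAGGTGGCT
Tubb5: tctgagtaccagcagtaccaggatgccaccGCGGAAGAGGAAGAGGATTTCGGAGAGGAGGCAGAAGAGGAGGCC
Tubb3: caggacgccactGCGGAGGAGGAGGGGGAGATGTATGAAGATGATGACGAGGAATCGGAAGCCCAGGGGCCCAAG
Tubb2a and Tubb2b differed at 3 of these bases, G57A, T63C and A66G from Tubb2a to Tubb2b. None of the 3 changes the encoded amino acid, so both genes encode the same tail. The tail of Tubb3 was the longest of the 6 shown, with 21 codons of which 11 are acidic. The other 5 had 15 or 16 codons, of which 9 or 10 are acidic, and the end of Tubb6 is not shown.

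Across the whole coding sequence the family fell into close and distant pairs. Translated Tuba1a and Tuba1b differed at 2 of 451 positions and were 99.6% identical, and their coding bases were 98.3% identical with an identical run of 281 bases. Tubb2a and Tubb2b likewise differed at 2 of 445 positions, and their coding bases were 96.5% identical with an identical run of 551 bases. Tubb4a and Tubb4b were also close as proteins, at 98.4% identity, but only 83.2% of their coding bases matched and the longest identical run was 38 bases. Over all pairs, protein identity was 95.8 to 99.6% among the 3 alphas, 90.2 to 99.6% among the 7 betas and 39.3 to 41.4% between an alpha and a beta. The lowest beta pair was Tubb2a with Tubb6, at 90.2%.

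The first question was how abundant each isotype was in adult hippocampus. Of the 10 members, 9 reached at least 100 TPM in both libraries, a level reached by 4.27% of the 22015 nuclear protein-coding genes. The same 9 passed 1 TPM and 10 TPM, which 59.1% and 38.2% of nuclear protein-coding genes passed, and Tubb6 stayed under 1 TPM. The 10 members summed to 2271 TPM in replicate 2 and 2221 TPM in replicate 1. That was 0.456% of the TPM of all nuclear protein-coding genes in replicate 2 and 0.443% in replicate 1, or 0.450 ± 0.0092% (SD, n = 2). Each library holds RNA of many cell types, so fewer cells of a type and less RNA per cell cannot be told apart in any value given here.

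**Figure D1:**
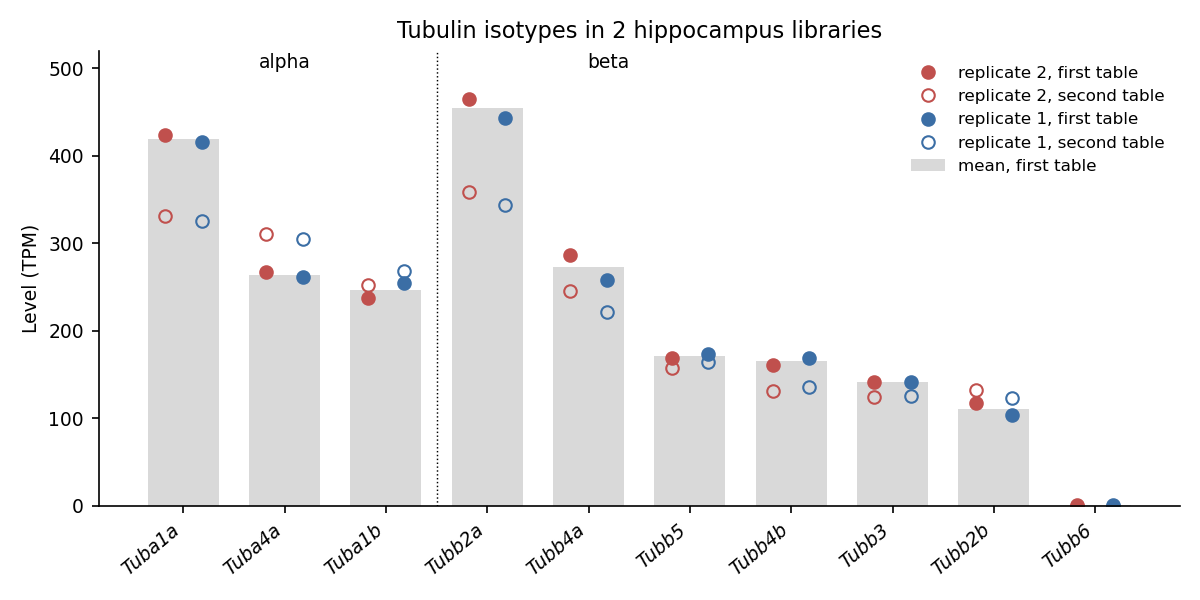
Level of each isotype in TPM (vertical axis, linear, from 0), alpha genes left of the dotted line and beta genes right of it. Points are the libraries, replicate 2 left of replicate 1, filled for the gene table and open for the second transcript table, and bars are the mean of the filled points; Tubb2a and Tuba1a are highest, and Tubb6 is near 0.

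Among the alphas, Tuba1a had 424 TPM in replicate 2 and 415 TPM in replicate 1. Its level ranked 93rd of the 22015 nuclear protein-coding genes. Tuba4a, the alpha known from mature neurons and platelets, had 267 TPM in replicate 2 and 261 TPM in replicate 1. Tuba1b, expressed in most tissues, had 238 TPM in replicate 2 and 255 TPM in replicate 1. In the gene table Tuba1a exceeded both others in each library by far more than their SD. Its share of alpha TPM was 45.6% in replicate 2 and 44.6% in replicate 1, or 45.1 ± 0.72% (SD, n = 2). Tuba4a held 28.4 ± 0.53% of alpha TPM and Tuba1b 26.5 ± 1.3%. The lead of Tuba1a was narrower in the second transcript table, made by another counting method. There Tuba1a had 329 ± 4.3 TPM and Tuba4a 308 ± 3.61 TPM (SD, n = 2), or 36.6% and 34.3% of alpha TPM.

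Among the betas, Tubb2a was the most abundant of all 10 members, with 465 TPM in replicate 2 and 443 TPM in replicate 1, and ranked 79th among nuclear protein-coding genes. It held 34.7% of beta TPM in replicate 2 and 34.4% in replicate 1. Tubb4a came next among the betas with 287 TPM in replicate 2 and 258 TPM in replicate 1, which was 20.7 ± 0.94% of beta TPM. Tubb5, an isotype of most dividing and resting cells, had 169 TPM in replicate 2 and 173 TPM in replicate 1. Tubb4b, another broadly expressed isotype that also enters cilia, had 161 TPM in replicate 2 and 169 TPM in replicate 1. The neuronal isotype Tubb3 had 142 TPM in replicate 2 and 141 TPM in replicate 1, the closest agreement of the family at an SD of 0.205% of the mean. Tubb2b had 117 TPM in replicate 2 and 104 TPM in replicate 1, the widest relative spread at 8.45% of the mean.

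Tubb6 stood apart from the rest. It had 0.68 TPM from 20 counts in replicate 2 and 0.66 TPM from 23 counts in replicate 1, and held 0.0507% of beta TPM in replicate 2 and 0.0512% in replicate 1. It ranked 13815th among nuclear protein-coding genes, against 872nd for Tubb2b, the next lowest member.

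In descending order of mean the members were Tubb2a, Tuba1a, Tubb4a, Tuba4a, Tuba1b, Tubb5, Tubb4b, Tubb3, Tubb2b and Tubb6. A pair of neighbours was taken as different where the gap in means exceeded the SD of both genes and had the same sign in both libraries, which held for 8 of the 9 neighbouring pairs. Tubb4a and Tuba4a did not differ by this rule, at 273 ± 20.0 and 264 ± 4.49 TPM (SD, n = 2), and their order changed between the libraries. The narrowest gap that passed was between Tubb5 and Tubb4b, at 171 ± 3.04 and 165 ± 5.11 TPM. No test was run between neighbours, because with 2 values a gene the smallest p of an exact two-sided permutation test, unpaired, is 0.333. Among the nuclear protein-coding genes outside the family whose levels lay nearest to Tuba1a in both libraries, by distance on the log2 TPM scale, were the spectrin Sptan1 at a distance of 0.0296 and the small GTPase Arf3 at 0.0459. Nearest to Tubb2a were Ptms, encoding parathymosin, at 0.040, the secreted chaperone Clu at 0.0561 and the metallothionein Mt3 at 0.0585. Likeness of level over 2 libraries is all that these distances measure.

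Beta tubulin exceeded alpha tubulin at the RNA level, counted over the members. The betas summed to 1342 TPM in replicate 2 and 1289 TPM in replicate 1, against 929 TPM in replicate 2 and 931 TPM in replicate 1 for the alphas. The beta to alpha ratio was 1.44 in replicate 2 and 1.38 in replicate 1, or 1.41 ± 0.042 (SD, n = 2). In the second transcript table, made from the same libraries by another counting method, the ratio was 1.29 in replicate 2 and 1.24 in replicate 1. The alpha sums leave out, among others, Tuba1c, at a mean of 23.4 TPM in the gene table. They also leave out the processed pseudogenes Gm14150 at 125 TPM and Gm3226 at 88.8 TPM, mRNA copies that share Tuba1 sequence. The beta sums leave out the pseudogenes Tubb4b-ps1 at 12.1 TPM and Tubb2a-ps2 at 0.58 TPM. How far reads counted at these loci would change the ratio was not tested.

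Several members share long stretches of sequence with each other or with other genes. Every 31-base and 100-base stretch of each member's main transcript was looked up in the transcripts of all other annotated genes. Of the 100-base stretches, 69.5% were shared with another gene for Tuba1b, 65.1% for Tuba1a, 36.9% for Tubb2a, 29.2% for Tubb4b and 27.7% for Tubb2b. None were shared for Tuba4a, Tubb3, Tubb4a, Tubb5 and Tubb6. Shared stretches lay mostly in the coding part, where 91.1% of the 100-base stretches of Tuba1b and 80.4% of those of Tuba1a were shared. Outside the coding part the share was 0% for Tuba1b and 22.4% for Tuba1a. The other genes include Gm49450, a read-through locus that overlaps Tuba1a and Tuba1b on their strand. It held 31.2% of the 100-base stretches of Tuba1a and 32.2% of those of Tuba1b, so part of the sharing may be the same locus annotated again. At 31 bases the shared part was 77.0% for Tuba1a and 75.4% for Tuba1b, against 1.87% for Tubb4a and 3.26% for Tubb3.

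The deposited posterior SD of a count measures how uncertain the assignment of its reads was. It was largest for the same genes, at 80.0 counts in replicate 2 and 92.4 in replicate 1 for Tuba1b, and 65.0 counts in replicate 2 and 71.8 in replicate 1 for Tuba1a. For Tubb2a it was 39.9 counts in replicate 2 and 39.4 in replicate 1, and for Tuba4a and Tubb5 it was 0 in both. A posterior SD above 2 times the square root of the count marked an uncertain assignment. None of the 9 members tested passed that threshold, against 1.35% of the 14434 genes tested, and the member nearest to it was Tuba1b at 0.987 times. That SD covers assignment within 1 counting method, and the difference between the methods was larger.

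Counts scaled to the library total (CPM) differed between the tables, and among the 9 tested members most for those that share sequence. Tuba1b had 290 CPM in replicate 2 and 305 in replicate 1 in the second transcript table, against 242 in replicate 2 and 256 in replicate 1 in the gene table, a mean log2 shift of 0.26. Tuba1a had 399 in replicate 2 and 390 in replicate 1 in the second transcript table, against 449 in replicate 2 and 437 in replicate 1 in the gene table, a shift of -0.17. Tuba1b thus stood higher and Tuba1a lower in the second transcript table, in both libraries. The shift was -0.20 for Tubb2a, -0.23 for Tubb2b and -0.14 for Tubb4b. Over the 5 members that share a 100-base stretch its size was 0.14 to 0.259, and over the 4 tested members that share none it was 0.006 to 0.037. The untested Tubb6, which shares none either, had the largest shift of the 10, -0.41, on 20 counts in replicate 2 and 23 in replicate 1 in the gene table. Across all 14434 genes tested the median shift was 0.02, with 5th and 95th percentiles of -0.17 and 0.29, so the shift of Tuba1b was exceeded in size by 9.22% of genes and that of Tubb3 by 92.8%.

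**Figure D2:**
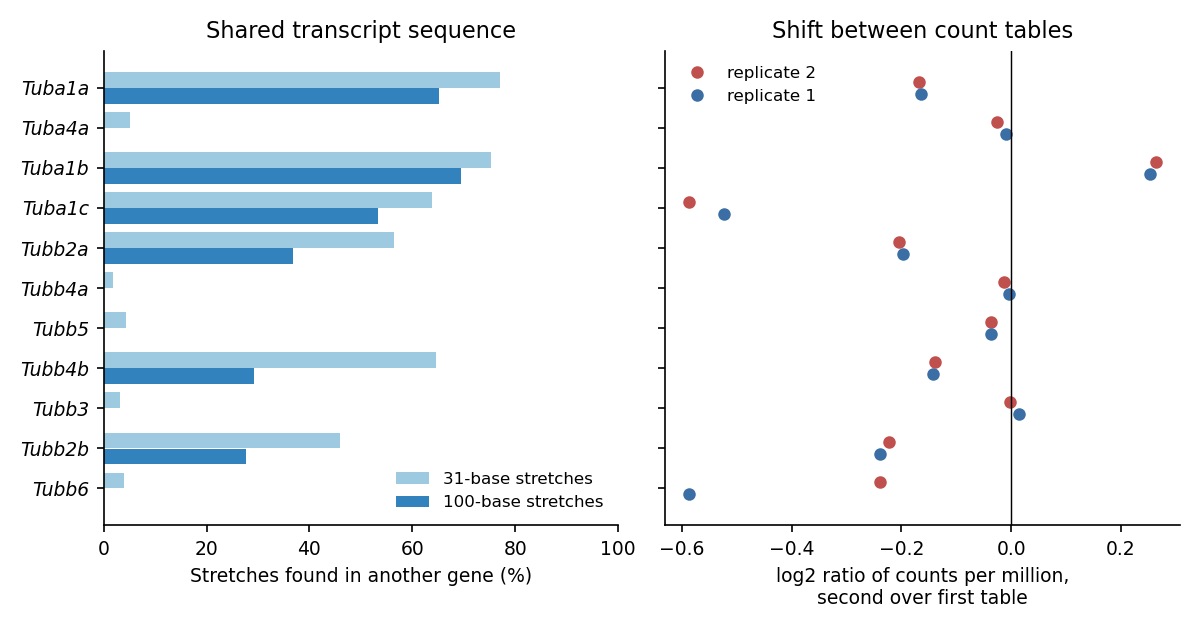
Left, percent of 31-base (pale) and 100-base (dark) stretches of each main transcript that also occur in another annotated gene. Right, log2 ratio of CPM in the second transcript table over the gene table, replicate 2 above replicate 1. Genes with long dark bars lie away from 0, among them Tuba1c, an alpha gene outside the 10 members. The low-count Tubb6, without a dark bar, also lies away from 0, and its shift rests on 20 and 23 counts in the gene table.

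Some of the shared sequence lies in processed pseudogenes, intronless copies of the mRNA that also received counts. Gm14150 (chromosome 2, 151458956 to 151460309, plus strand) had 72.4% of its 31-base stretches in Tuba1b and 57.0% in Tuba1a. It had 121 TPM from 2677 expected counts in replicate 2 and 128 TPM from 3392 counts in replicate 1. Gm3226 (chromosome 13, 112593743 to 112595084, minus strand), with 74.5% of its 31-base stretches in Tuba1b and 68.7% in Tuba1a, had 87.9 TPM in replicate 2 and 89.7 TPM in replicate 1. Together the counts of these 2 loci came to 67.1% of those of Tuba1b in replicate 2 and 65.6% in replicate 1. In the second transcript table the same figure was 23.5% in replicate 2 and 23.1% in replicate 1, and Gm14150 was at 18.3 TPM in replicate 2, against 16.3 TPM in replicate 1. Its log2 shift of -2.71 was exceeded in size by 1.25% of genes. Whether these loci are transcribed or took reads of Tuba1b and its relatives cannot be told apart from the tables.

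The reads of the Tuba1 genes, summed, moved little between the tables, although their split did. Tuba1a, Tuba1b and the closely related Tuba1c together had 708 CPM in replicate 2 and 714 in replicate 1 in the second transcript table, against 717 in replicate 2 and 720 in replicate 1 in the gene table. With both pseudogenes added the sums were 776 in replicate 2 and 784 in replicate 1 in the second transcript table, against 880 in replicate 2 and 888 in replicate 1 in the gene table. The Tubb2a and Tubb2b pair had 508 in replicate 2 and 469 in replicate 1 in the second transcript table, against 588 in replicate 2 and 541 in replicate 1 in the gene table. The beta pseudogenes held less. Tubb4b-ps1, with 65.4% of its 31-base stretches in Tubb4b, had 12.7 TPM in replicate 2 and 11.5 TPM in replicate 1, and Tubb2a-ps2 had 0.69 TPM in replicate 2 and 0.47 TPM in replicate 1.

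Members also overlap other annotated genes. Tuba1a and Tuba1b both overlap Gm49450, a read-through locus on their strand that is listed at 0 in both libraries. Tubb3 overlaps Gm20388 on the same strand, at 11.6 TPM in replicate 2, against 0.08 TPM in replicate 1 in the gene table. In the second transcript table Gm20388 had 9.15 TPM in replicate 2 and 4.25 TPM in replicate 1, and its read assignment was uncertain at 5.12 times the square root of the count. It shares no 31-base stretch with the main Tubb3 transcript. Tuba4a overlaps the kinase gene Stk16 on the opposite strand, at 38.4 TPM in replicate 2, against 42.3 TPM in replicate 1. No source used here says whether strand was used in counting, so reads of overlapping genes on opposite strands may not be separated.

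The next question was which annotated transcript carried each isotype. In the first transcript table a single transcript held at least 92.6% of the gene's TPM in both libraries for 9 of the 10 members, with Tubb5-201 the lowest of them. For Tuba1a, Tubb2a, Tubb4a and Tubb6 that share was 100% in both. The exception was Tuba4a. Its transcript Tuba4a-201 held 84.5% in replicate 2 and 82.2% in replicate 1, and Tuba4a-206 held 9.57% in replicate 2 and 12.03% in replicate 1. Tuba4a-202, which carries the consensus coding sequence, held 3.22% in replicate 2 and 2.72% in replicate 1. Tuba4a-201 has an incomplete coding start in the annotation, so which Tuba4a protein these reads encode is not settled by the table.

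The second transcript table gave another split for Tuba4a, Tubb2b and Tubb5. Tuba4a-207, a fragment of 346 bases, was listed at 0 in the first transcript table and held 19.0% of Tuba4a TPM in replicate 2 and 17.9% in replicate 1 in the second. Tubb2b-202, a processed transcript of 430 bases, held 38.5% of Tubb2b TPM in replicate 2 and 45.3% in replicate 1 in the second table. In the first table it was at 0% in replicate 2 and 4.69% in replicate 1. Tubb5-204, an intron-retaining transcript of 979 bases, held 21.5% in replicate 2 and 22.8% in replicate 1 in the second table, against 6.44% in replicate 2 and 5.76% in replicate 1 in the first. The highest transcript was the same in both tables for each of these 3 genes, Tuba4a-201, Tubb2b-201 and Tubb5-201. TPM divides by length, so a read weighs more on a short transcript than on a long one. Tubb2b, higher in TPM in the second table, was lower there in CPM, with 130 in replicate 2 and 109 in replicate 1. In the gene table its CPM was 151 in replicate 2 and 128 in replicate 1. The part of Tubb2b-202 in that difference was not tested.

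**Figure D3:**
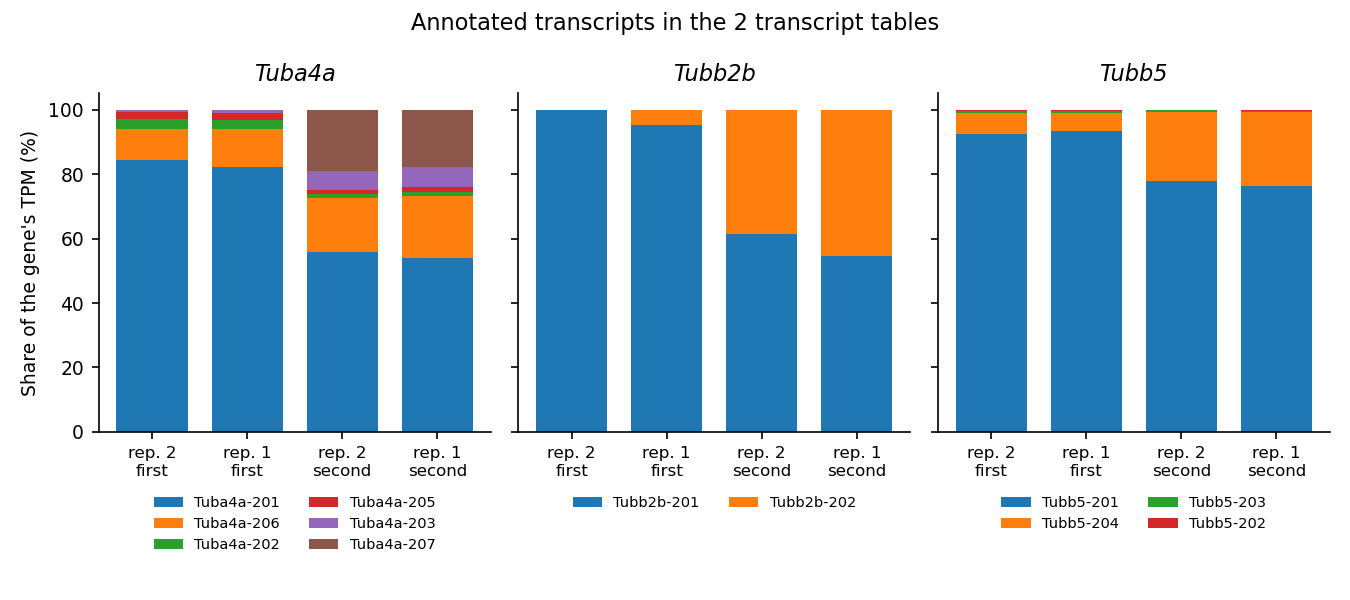
Percent of each gene's TPM held by its annotated transcripts, for the 3 members whose split differed most between the tables. In each panel the first pair of bars is the first transcript table and the second pair the second transcript table, replicate 2 left of replicate 1; the blue main transcript is highest in every bar.

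The libraries were then compared with each other, as ratios of replicate 2 over replicate 1 after TMM scaling, with intervals that cover counting error only. None of the 9 members with a mean count of at least 50 differed 2-fold or more, and 1.14% of the 14434 genes tested did. Tubb6 was below the count minimum and not tested. Tubb2b had the largest difference, with 4294 counts in replicate 2 and 4380 in replicate 1 and a log2 ratio of 0.24 (95% interval 0.18 to 0.30). Tubb4a followed with 10747 counts in replicate 2 and 11596 in replicate 1, and a ratio of 0.16 (0.12 to 0.20). Tubb2a stood at 0.08 (0.05 to 0.12), Tuba4a at 0.07 (0.03 to 0.11) and Tuba1a at 0.04 (0.006 to 0.07).

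Tuba1b was the only member whose interval lay below 0, with 6855 counts in replicate 2 and 8750 in replicate 1 and a log2 ratio of -0.08 (-0.13 to -0.04). The intervals of Tubb3, Tubb5 and Tubb4b included 0, with log2 ratios of 0.02, -0.03 and -0.05. Counted over the family, 5 of 9 members were higher in replicate 2 beyond counting error, against 20.2% of all genes tested, and 1 of 9 was lower, against 23.8%. Either way the count was 6 of 9, against 43.9%. Counting intervals narrow as counts rise, and these shares were not matched to the members by count. Tuba1a, with 14915 counts in replicate 1, was called at 0.04. Tube1, with 63 counts in replicate 1, was not called at 0.37 (-0.14 to 0.90). The counts of members beyond counting error therefore do not show more variation than in other genes. Of the 9 members, only Tubb2b and Tubb4a exceeded the median size of the log2 ratio over all genes tested, 0.137. All 9 members lay between the 5th and 95th percentiles of all genes, -0.43 and 0.45. The median ratio was 0.04 over the members and -0.01 over all genes tested.

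**Figure D4:**
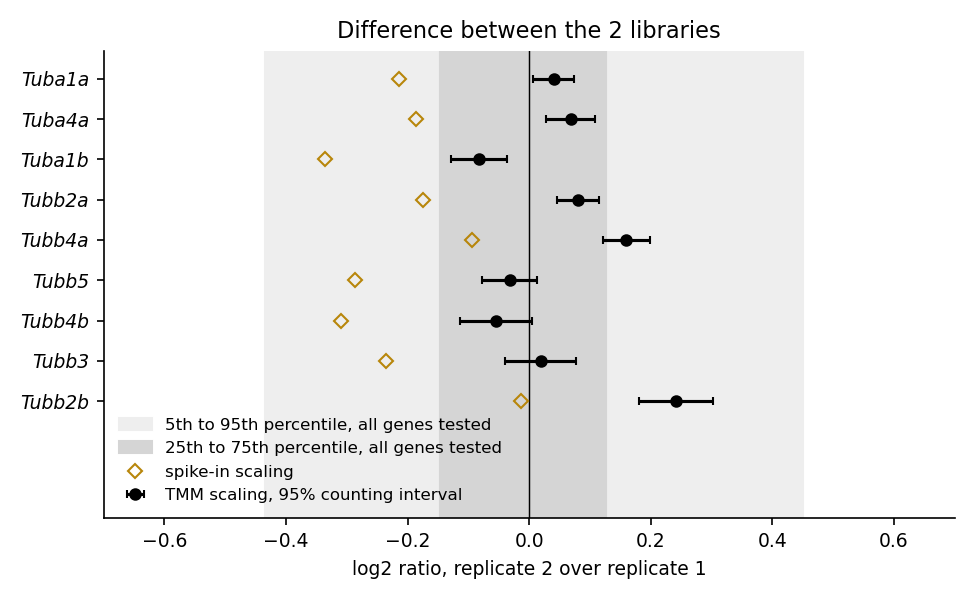
log2 ratio of replicate 2 over replicate 1 for the 9 tested members (black points, bars are 95% counting intervals) and the same ratio under spike-in scaling (open diamonds). The dark band runs between the quartiles and the pale band between the 5th and 95th percentiles of all genes tested under TMM scaling; Tubb2b at 0.24 and Tubb4a at 0.16 lie right of the dark band, and every diamond lies left of its point.

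Scaling by the spike-ins moved the median of all genes tested to -0.26, a shift of about -0.25 that every member shared. Relative to that median, Tubb2b at -0.01 and Tubb4a at -0.09 remained above it, while Tuba1b at -0.34 remained below. Under this scaling all 10 members had a log2 ratio below 0, where 7 had been above it, Tubb3 and the untested Tubb6 among them.

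Cell type markers also differed between the libraries, and the counts of markers beyond counting error stand against 20.2% of all genes tested that were higher in replicate 2 and 23.8% that were lower. Those shares were not matched to the markers by count. Choroid plexus markers summed to 638 TPM in replicate 2 and 27.7 TPM in replicate 1 over 6 genes, led by the thyroxine carrier Ttr at 615 TPM in replicate 2, against 21.8 TPM in replicate 1. All 4 of the choroid plexus markers tested, Ttr, Kl, Clic6 and Aqp1, differed 2-fold, against 1.14% of all genes tested. Kcne2 was listed at 0 in replicate 1. Oligodendrocyte markers summed to 1515 TPM in replicate 2 and 1467 TPM in replicate 1, with 6 of 7 higher in replicate 2 beyond counting error, among them Opalin, and Mbp lower. Neuron markers summed to 2972 TPM in replicate 2 and 2860 TPM in replicate 1, and 4 of 6 were higher in replicate 2 beyond counting error and none lower. Astrocyte markers summed to 1656 TPM in replicate 2 and 1576 TPM in replicate 1, with 3 of 5 higher and 2 lower. Of 5 newborn neuron markers, 3 reached 1 TPM in both libraries, and all 5 summed to 21.2 TPM in replicate 2, against 26.1 TPM in replicate 1. Among the 3 tested, 1 was higher in replicate 2 beyond counting error and 2 were lower. Within that list Dcx, which encodes a microtubule-binding protein of migrating neurons, had 6.93 TPM in replicate 2 and 5.82 TPM in replicate 1, and Sox11 was lower 2-fold, with 3.44 TPM in replicate 2 and 7.59 TPM in replicate 1. Ependymal and cilium markers, of which 4 of 5 reached 1 TPM in both, summed to 16.6 TPM in replicate 2 and 11.6 TPM in replicate 1. Among the 2 tested, 1 was higher beyond counting error and none lower. Microglia markers summed to 138 TPM in replicate 2 and 131 TPM in replicate 1, and endothelial markers to 96.8 TPM in replicate 2 and 94.6 TPM in replicate 1, with all 5 of each list above 1 TPM. Beyond counting error, 2 of 5 microglia markers were higher in replicate 2 and 1 was lower. For the 5 endothelial markers, 1 was higher and 2 were lower, with a median log2 ratio of -0.16. The part of these markers in the ratios of Tubb2b, Tubb4a and the other members was not tested.

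Tubulin genes outside the 10 members were below 9 of the members and, for 6 of them, above Tubb6. Tuba1c, the next alpha, had 23.7 TPM in replicate 2 and 23.1 TPM in replicate 1 in the gene table, and 14.9 TPM in replicate 2 and 14.5 TPM in replicate 1 in the second transcript table. The gamma tubulins, which seed new microtubules, came next, with Tubg1 at 21.9 TPM in replicate 2, against 21.03 TPM in replicate 1, and Tubg2, the form known from brain, at 21.04 TPM in replicate 2, against 18.4 TPM in replicate 1. Tuba8 had 3.81 TPM in replicate 2 and 3.62 TPM in replicate 1. The centriolar delta and epsilon tubulins were at 2.74 TPM in replicate 2, against 3.85 TPM in replicate 1 for Tubd1, and 1.30 TPM in replicate 2 and 1.46 TPM in replicate 1 for Tube1. Tubb1, the beta isotype of platelets, was listed at 0 in replicate 2 and 0.25 TPM in replicate 1. Tuba3a, Tuba3b and Tubal3 did not exceed 0.04 TPM in either library. Of the 6 tested, Tubg2 was higher in replicate 2 beyond counting error and Tubd1 was lower, 1 of 6 each against 20.2% and 23.8% of all genes tested. None of the 6 differed 2-fold, against 1.14% of all genes tested.

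The genes that seed, fold and control tubulin were detected throughout. All 8 genes of the gamma-tubulin ring list reached 1 TPM in both libraries, led by the small ring proteins Mzt1 at 33.1 ± 2.46 TPM and Mzt2 at 27.0 ± 0.94 TPM, and lowest was Nedd1, which targets the ring to centrosomes, at 1.91 ± 0.14 TPM (SD, n = 2). All 6 prefoldin subunits, which hand nascent tubulin to the chaperonin, were detected, with Pfdn5 at 202 ± 5.24 TPM, Pfdn2 at 45.8 ± 2.17 TPM and Pfdn4 at 11.2 ± 0.50 TPM. The 8 subunits of the chaperonin CCT, the folding chamber for tubulin and actin, summed to 675 TPM in replicate 2 and 758 TPM in replicate 1. Cct7 was highest with 99.99 TPM in replicate 2 and 120 TPM in replicate 1, followed by Tcp1 with 99.98 TPM in replicate 2 and 112 TPM in replicate 1, and Cct4 was lowest with 49.6 TPM in replicate 2 and 60.7 TPM in replicate 1. Among the 8 subunits, 6 were lower in replicate 2 beyond counting error and none was higher, against 23.8% of all genes tested that were lower and 20.2% that were higher. Those shares were not matched to the subunits by count. The median log2 ratio of the subunits was -0.15, against -0.01 over all genes tested. The prefoldin list had the same median of -0.15, with 2 of 6 lower beyond counting error and none higher, against the same shares. Of the 8 ring genes, 2 were higher and 2 lower.

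The tubulin cofactor list holds 7 genes, several of which act in taking the folded chains to the finished dimer. Among them Tbca had 65.4 ± 1.61 TPM, Tbcb 56.7 ± 5.95 TPM and Tbcc, the lowest, 16.8 ± 2.02 TPM (SD, n = 2). Tbce and Tbcc, 2 of 7, were higher in replicate 2 beyond counting error, against 20.2% of all genes tested, and none was lower. Ttc5, which binds nascent tubulin and starts the decay of tubulin mRNA when free dimers are in excess, had 32.7 TPM in replicate 2 and 30.3 TPM in replicate 1.

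Enzymes that modify the tails and the wall of the microtubule covered a wide range. In the tyrosination cycle, which acts on the tyrosine encoded at the end of Tuba1a and Tuba1b, the detyrosinating enzyme Vash1 had 17.6 ± 2.40 TPM and the ligase Ttl, which puts the tyrosine back, 17.2 ± 0.13 TPM (SD, n = 2). Vash2 was lowest at 1.12 ± 0.33 TPM, and 3 of the 4 genes of the cycle reached 1 TPM in both libraries. Of these 4, 1 was higher and 1 lower in replicate 2 beyond counting error, against 20.2% and 23.8% of all genes tested. Of the acetylation genes, the deacetylase Sirt2 had 65.5 ± 4.53 TPM, the acetyltransferase Atat1 28.5 ± 0.32 TPM and the deacetylase Hdac6 24.0 ± 2.66 TPM. Sirt2 and Hdac6, 2 of 3, were higher in replicate 2 beyond counting error, against 20.2% of all genes tested.

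Glutamylases add glutamate chains to the tail glutamates, and 9 of 12 listed genes of these enzymes and their complex partners reached 1 TPM in both libraries. Ttll7, a glutamylase with a preference for beta tubulin, was highest at 73.6 ± 4.75 TPM, followed by Nicn1 at 57.3 ± 8.73 TPM, and Ttll6 was lowest at 0.22 ± 0.028 TPM (SD, n = 2). Of the 9 tested, 2 were higher and 1 lower in replicate 2 beyond counting error, against 20.2% and 23.8% of all genes tested. Among the deglutamylases Agtpbp1, whose loss causes Purkinje cell degeneration in mice, had 183 ± 8.53 TPM. The next, Agbl4, had 9.78 ± 0.40 TPM and Agbl1, the lowest, 0.11 ± 0.014 TPM. None of the 4 deglutamylases tested was higher or lower in replicate 2 beyond counting error, against the same shares. Of the glycylases, known mainly from cilia, Ttll3 had 9.84 ± 0.57 TPM, Ttll8 had 1.69 TPM in replicate 2 and 0.60 TPM in replicate 1, and Ttll10 had 0.12 TPM in replicate 2 and 0.02 TPM in replicate 1. Microtubule-severing genes were led by the katanin-like Katnal1 at 31.4 ± 3.44 TPM and Spast, the gene of spastin, at 24.4 ± 1.83 TPM, with Fignl1 lowest at 0.18 ± 0.021 TPM. Of the 6 severing genes tested, 1 was higher and 3 were lower in replicate 2 beyond counting error, against 20.2% and 23.8% of all genes tested. None of the tested genes in the 12 lists of seeding, folding, modifying, severing and other tubulin genes differed 2-fold between the libraries. The share of all genes tested that did was 1.14%. Genes below the count minimum, such as Ttll8 at a log2 ratio of 1.15, were not tested.

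**Figure D5:**
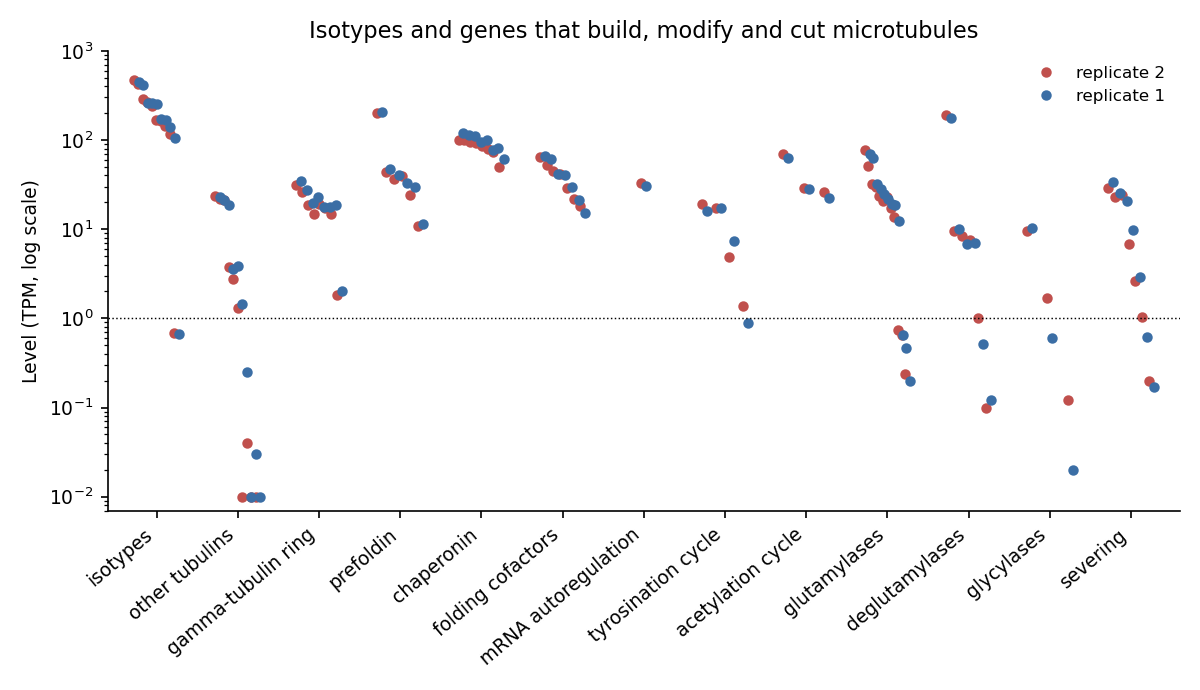
Level in TPM (vertical axis, log scale) of every gene in the isotype list and in the 12 lists of partner genes, ordered by level within a list, replicate 2 left of replicate 1 in each pair. Values under 0.01 TPM are drawn at 0.01 and the dotted line is 1 TPM; 9 isotypes lie above 100 TPM, and Tubb6 is the only isotype under the line.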

How the data were processed

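The authors deposited a gene table and 2 transcript tables for each library, made on GENCODE M21 and mouse build mm10, also called GRCm38, per the notes filed with them. Their headers match RSEM for the gene table and first transcript table, and kallisto for the second transcript table. Neither the aligner nor tool versions nor the strand setting are named in the labels or headers. Per the file headers, the expected counts are estimates that need not be whole; they were deposited unnormalised and rounded here before ratios were formed. TPM was computed by the authors per effective length over all entries, mitochondrial and spike-in ones among them. FPKM values deposited by the authors served as 1 alternative. The deposited percent of gene TPM per transcript was recomputed here. The posterior SD of counts was deposited as a signal in units of counts.

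Library sizes were taken over annotated genes. Entries that name no gene, with phiX, took 0.00025% of the counts of replicate 2 and 0.000243% of those of replicate 1. Levels are means ± SD of 2 libraries, and a difference between them may be biological or technical. Ratios used TMM scaling and a prior count of 2 in edgeR 4.0.16 under R 4.3.3, after a low-count filter at 10, and were called over genes with a mean count of at least 50. A 2-fold call needed an absolute log2 ratio of 1 or more and an exact Clopper-Pearson 95% interval that excludes 1. The ratios compare 2 libraries, not conditions, and no p-value was computed from them. Intervals cover counting error alone and leave out the uncertainty of read assignment. They may be too narrow even for counting error, because reads without molecular identifiers are not independent molecules. Intervals also narrow as counts rise, and the shares of all genes tested were not matched by count to the members or any list. The ratio step was tested on simulated counts with known changes. DESeq2 1.42.0 size factors, spike-in scaling, no filter, another threshold and the second transcript table were alternatives. Protein identity came from global alignment of translated consensus coding sequences in Biopython 1.88. Reads of the CAST/EiJ allele were counted against a C57BL/6J annotation, and the effect of this on the members was not tested.

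The rule for members uses gene symbols alone, but the members and lists were chosen with earlier results of these data known. Named genes were all members, every other tubulin, the 2 highest and the lowest of each list, any list gene that differed 2-fold or had uncertain assignment, and the 3 genes nearest in level to Tuba1a and to Tubb2a. For cell type markers, the sums and calls are given in place of every gene this rule takes in. The subfield genes, the pseudogenes and overlapping genes, and Mbp, Dcx, Opalin, Tbce and Kcne2, were named after their values were seen. Some genes and sequences that these rules take in are not reported here.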

Additional observations from a re-analysis of the deposited data

How the results depend on the processing

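Counting by the second transcript table moved each summary of level by more than the SD between libraries. The sum of the 10 members was 2031 TPM there, against 2246 ± 35.5 TPM in the gene table, the beta to alpha ratio 1.26 against 1.41, the share of alpha TPM held by Tuba1a 36.6% against 45.1%, and the share of beta TPM held by Tubb2a 30.99% against 34.5%. Rescaling TPM over nuclear protein-coding genes alone gave a sum of 4498 TPM and, by construction, left ratios and shares as they were. Without replicate 1 and without replicate 2, the sum was 2271 and 2221 TPM, the ratio 1.44 and 1.38, the Tuba1a share 45.6% and 44.6% and the Tubb2a share 34.7% and 34.4%. The number of members above 100 TPM was 9 under each of these settings and under rescaled FPKM. In the second table the order by level put Tuba4a and Tuba1b above Tubb4a and Tubb2b (128 TPM) above Tubb3 (125 TPM), the last a gap within the SD, and 7 of 9 neighbouring pairs differed. No member differed 2-fold under DESeq2 or spike-in scaling, without the filter or from the second table, nor 1.5-fold under the main scaling, and 1.14% of all genes differed 2-fold under the main scaling. Intervals excluded 1 for 6 members against 43.9% of all genes tested, for 8 under spike-in scaling against 69.8%, and for 5 from the second table against 43.9%. The shares of all genes were not matched to the members by count. Spike-in scaling shifted the median of all genes by -0.25, a shift that all genes share, and the sign turned for 7 of 10 members, to -0.21 for Tuba1a, -0.19 for Tuba4a, -0.17 for Tubb2a, -0.01 for Tubb2b and -0.09 for Tubb4a, whose intervals had lain above 0, and to -0.24 for Tubb3 and -0.17 for Tubb6. No paired analysis was possible because both libraries belong to 1 group. The count of Tubb6, 20 in replicate 2 and 23 in replicate 1, limits any statement on its difference.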
